A study of Mus musculus with 81 samples.

Results

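TCRBD01-01 and TCRBD02-01 are the only D segments of the mouse T cell receptor β locus, and one or the other is built into nearly every TCRβ gene that a T cell assembles. The distinct rearrangements of all 81 libraries were split by the D segment that the sequencing assay assigned to them. After 2 dominant CDR3 sequences had been left out, 580157 rearrangements remained, of which 471739 had a resolved D segment. TCRBD01-01 (TCRBD01 below) was assigned to 259961 of them, or 44.8%, and TCRBD02-01 (TCRBD02) to 211778, or 36.5%. The other 108418, or 18.7%, were unresolved. In 95851 of these both D segments fitted what was left of D equally well, with a mean of 3.83 bases, and 12567 showed V joined to J with no D base.

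A TCRβ gene is cut and pasted from 1 V, 1 D and 1 J segment during T cell development. D is first joined to J, enzymes nibble bases from the ends and terminal transferase adds untemplated ones, and V is then joined to the product, so that the D segment with its inserted bases forms the center of CDR3, the loop that touches the presented peptide. The locus carries a pair of D-J clusters. TCRBD01 lies upstream of both sets of J segments and can be joined to either, whereas TCRBD02 lies between the sets, downstream of J1, and is normally joined to J2. A joint that is out of frame makes no receptor but stays in the genome of a cell whose other allele succeeded, so that DNA libraries hold both kinds.

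Genomic DNA of CD45.1 Pep Boy mice (B6.SJL-Ptprc<a> Pepc<b>/BoyJ) was sequenced with the immunoSEQ assay, in 43 libraries of a treatment experiment and 38 of a rechallenge experiment, from 27 mice. Every mouse had received OT-1 cells, which carry a transgenic receptor for an ovalbumin peptide. In the treatment experiment, mice with flank tumors of EG7.OVA, an ovalbumin-expressing derivative of the EL4 lymphoma, were given 1e6 OT-1 cells and then, on days 0 and 3, control mouse red blood cells (mRBC-CTRL, 1E9) or red blood cells coupled to an ovalbumin peptide on MHC I, the costimulatory ligand 4-1BBL and IL-12 (named mRBC-OVA-4-1BBL-IL-12), given as 2.5E8 or 1E9 cells. Blood came from day 0, when OT-1 cells had just been injected but no red blood cells yet, and from day 7, and tumor from day 7, with 4 or 5 mice per arm, tissue and day. In the rechallenge experiment, 7 mice cured by 1e6 OT-1 cells and the lower dose, 2.5E8, of mRBC-OVA-4-1BBL-IL-12 gave blood on days 65 and 73, around EG7.OVA given on day 66, and on days 126 and 136, around EL4 given on day 127. Age-matched naive mice, 5 in number, had 5e5 OT-1 cells without red blood cells and gave blood on days 65 and 73. Blood DNA came from whole blood and tumor DNA from the digested tumor with its lymphoma cells, so shares of rearrangements do not give numbers of T cells. The libraries held 2623 to 81909 templates (rearranged DNA molecules) and 498 to 26965 rearrangements, and no 2 libraries were identical.

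The CDR3 sequences left out were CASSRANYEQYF, that of the OT-1 receptor, with 216291 templates, and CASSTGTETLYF, with 248052 templates. The main rearrangement of each had only 4 bases of D left and was unresolved. With both kept, unresolved rearrangements took 47.0% of all templates, and without them 19.7%.

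The germline D segments are shown first, because they differ in length and in a run of G to which later results refer. They were read from the 4709 and 3297 rearrangements of TCRBD01 and TCRBD02 that had lost no D base, and within each set all copies were identical. Each is written 5′ to 3′.
TCRBD01: gggacagggggc
TCRBD02: gggactgggggggc
TCRBD01 has 12 bases and TCRBD02 has 14, the lengths that RefSeq gives for Trbd1 and Trbd2. Both begin with the same 5 bases and end in a run of G followed by C, and the run is longer by 2 in TCRBD02. Read from the first base, both code for glycine, threonine and glycine. The second base as the start gives glycine with glutamine in TCRBD01 and with leucine in TCRBD02, and the third gives aspartic acid with arginine in TCRBD01 and with tryptophan in TCRBD02. None of these readings contains a stop codon.

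For TCRBD01 with J1, TCRBD01 with J2 and TCRBD02 with J2, the pair of in-frame rearrangements found in most mice is shown, 87 bases each, with the bases assigned to D in capitals.
TCRBD01 with TCRBJ01-03 and TCRBV02-01: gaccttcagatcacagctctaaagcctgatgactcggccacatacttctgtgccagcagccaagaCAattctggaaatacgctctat
TCRBD01 with TCRBJ01-03 and TCRBV01-01: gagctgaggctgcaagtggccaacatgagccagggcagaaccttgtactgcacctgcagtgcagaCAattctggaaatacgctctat
TCRBD01 with TCRBJ02-07 and TCRBV03-01: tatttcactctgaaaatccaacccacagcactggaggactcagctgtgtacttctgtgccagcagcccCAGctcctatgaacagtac
TCRBD01 with TCRBJ02-07 and TCRBV12-01: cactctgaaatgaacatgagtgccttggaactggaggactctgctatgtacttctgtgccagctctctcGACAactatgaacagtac
TCRBD02 with TCRBJ02-07 and TCRBV20-01: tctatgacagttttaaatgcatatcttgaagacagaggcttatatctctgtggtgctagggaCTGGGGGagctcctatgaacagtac
TCRBD02 with TCRBJ02-07 and TCRBV02-01: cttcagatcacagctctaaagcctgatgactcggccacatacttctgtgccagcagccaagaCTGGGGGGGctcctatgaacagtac
The most widely shared one was the first with TCRBD01 and a J2 segment, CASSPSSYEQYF, found in 17 of 27 mice and 23 libraries with 70 templates. The first with TCRBD02, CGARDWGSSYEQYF, was found in 14 mice and 15 libraries, and those with TCRBD01 and J1 in 11 mice each. The TCRBD01 examples kept 2 to 4 bases of D and the TCRBD02 examples 7 and 9. Sharing was rare in every class. Of the distinct in-frame sequences, 4.66% with TCRBD01 and J1, 3.48% with TCRBD01 and J2 and 3.55% with TCRBD02 and J2 were found in at least 2 mice.

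TCRBD01 was joined to both J clusters, and TCRBD02 almost always to J2. Over the 27 mice, 53.3% ± 1.28 (SD) of the in-frame TCRBD01 rearrangements used a J1 segment, with a range from 50.2% to 55.3%. Among all rearrangements, TCRBD01 had 140483 joins to J1 and 119464 to J2, and TCRBD02 had 15692 to J1 and 196078 to J2. Where a J2 segment was used and D was resolved in frame, TCRBD02 was the D segment in 59.2% ± 1.69 of rearrangements, from 56.6% in the lowest mouse to 62.7% in the highest. This value, the TCRBD02 share of J2 joins, is the main measure below. For a mouse it is the mean over its libraries, which include tumor in the treatment experiment only. The highest mouse, mouse 1 of mRBC-CTRL, had 58.9% in day 0 blood and 66.4% in tumor.

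In RefSeq's GRCm38 order, TCRBD02 lies downstream of the 7 J1 segments, yet 9.30% ± 0.653 of resolved in-frame J1 rearrangements were assigned to it (27 mice). That share moved with how much of D was left. With 2 bases of D it was 29.4% ± 4.35, with 5 bases 6.86% ± 1.54, with 7 bases 15.1% ± 1.89 and with 9 bases 1.31% ± 0.906. With 10 bases TCRBD02 was assigned to 17 of 5933 J1 rearrangements, and with 12 bases to 0 of 1405. Beyond 9 bases, TCRBD02 was thus nearly absent from J1. Among J2 rearrangements the share was also higher with 2 bases than with 3, but rose with longer remnants. TCRBD02 took 47.6% ± 5.57 with 2 bases of D, 26.1% ± 3.56 with 3, 57.7% ± 1.88 with 7, 74.4% ± 2.79 with 10 and 84.1% ± 2.62 with 12, and lengths of 13 and 14 exist only in TCRBD02. The assigned shares therefore depend on remnant length in both clusters, and the comparisons between conditions were repeated with at least 8 bases of D.

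**Figure D1:**
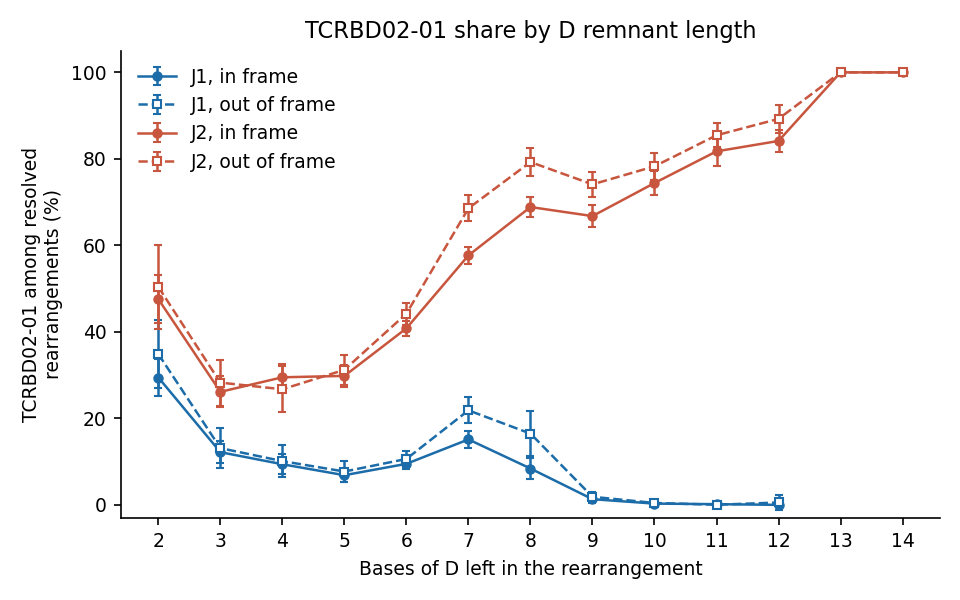
TCRBD02-01 as a percent of resolved rearrangements (y axis) against the number of D bases left (x axis), for J1 and J2 rearrangements in and out of frame; points are means over 27 mice and bars SD. With J2 the in-frame share is 47.6% at 2 bases and 26.1% at 3 and reaches 84.1% at 12, whereas with J1 it is near 0 from 10 bases on.

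Among the J2 segments, TCRBD02 was least used with TCRBJ02-02, at 49.5% ± 2.64 of resolved in-frame rearrangements (SD, 27 mice). The next segment when ranked by this share, TCRBJ02-01, had 58.9% ± 3.05, higher by 9.36 points and in 26 of 27 mice (permutation test by sign flips, adjusted p = 5e-05 over 5 comparisons of neighbors). The ranking came from the same values, so the pairs and their direction were not set beforehand. The other segments lay close together, with 59.4% ± 2.04 for TCRBJ02-07, 59.6% ± 2.36 for TCRBJ02-05, 60.6% ± 2.19 for TCRBJ02-04 and 61.7% ± 2.22 for TCRBJ02-03. None of these differed from its neighbor in rank beyond the spread between mice (adjusted p from 0.145 to 0.487, permutation test). Segments farther apart in rank were not compared. TCRBJ02-06, a pseudogene in RefSeq, had 37 resolved in-frame rearrangements, 6 with TCRBD02, and was not ranked. With the J1 segments the assigned TCRBD02 share was 7.54% ± 1.64 for TCRBJ01-04, 8.10% ± 1.70 for TCRBJ01-05, 9.28% for TCRBJ01-03 and for TCRBJ01-06 with SDs of 1.59 and 2.36, 9.96% ± 1.67 for TCRBJ01-02 and 10.2% ± 1.25 for TCRBJ01-01. TCRBJ01-07 had 7 resolved in-frame rearrangements.

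**Figure D2:**
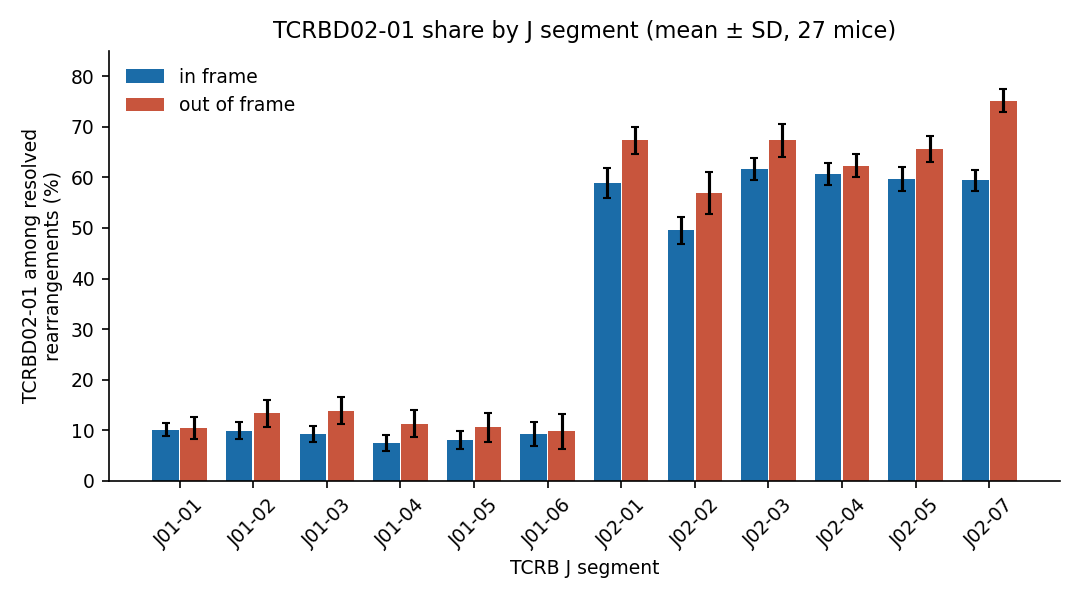
TCRBD02-01 as a percent of resolved rearrangements (y axis) for each J segment with enough rearrangements (x axis), in frame and out of frame; bars are means over 27 mice and error bars SD. TCRBJ02-02 is the lowest J2 segment at 49.5% in frame, and TCRBJ02-07 has the largest gap between in frame, 59.4%, and out of frame, 75.1%.

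The V segment also went with the choice of D. For the 20 V segments that held at least 1% of in-frame rearrangements, the TCRBD02 share of J2 joins ran from 33.4% ± 5.55 with TCRBV29-01 and 37.5% ± 4.36 with TCRBV26-01 to 70.1% ± 3.11 with TCRBV04-01 (27 mice; these segments were picked after their values were seen). Out of frame the same segments had 41.0% ± 6.73, 49.8% ± 5.61 and 73.3% ± 4.63, and the first of them was again the lowest. Across the mice, the V segment whose own abundance went most closely with the TCRBD02 share of J2 joins was TCRBV12-02 (Pearson r = 0.78, adjusted permutation p = 0.0004 over 20 segments; Spearman rho = 0.77, adjusted permutation p = 0.0006). Without the 2 farthest mice r was 0.804. TCRBV13-02 followed with r = 0.515 and TCRBV12-01 with r = 0.348, and TCRBV31-01 was lowest with r = -0.579. For TCRBV12-02 r was 0.739 within the 15 treatment mice and 0.0152 within the 12 rechallenge mice, for TCRBV13-02 it was 0.149 and 0.0711, for TCRBV12-01 -0.514 and 0.152, and for TCRBV31-01 0.242 and 0.194. The values of the treatment mice include their tumors. Of these 4 segments, TCRBV12-02 had an r near the pooled one in the treatment mice and none had it in the rechallenge mice.

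The segments also differed in the insertions and deletions assigned at their ends. These numbers rest on the assay's assignment of D and cover resolved D only, and the part of the assignment in them was not tested. The in-frame joints of TCRBD02 with J2 were compared with those of TCRBD01 with J2 in the same mouse. The number of bases inserted between V and D did not differ beyond the spread, at 1.79 ± 0.0425 for TCRBD02 and 1.81 ± 0.0569 for TCRBD01 (mean difference -0.0152, lower in 16 of 27 mice, permutation test, adjusted p = 0.3). Between D and J, TCRBD02 had more inserted bases, 1.80 ± 0.0590 against 1.66 ± 0.0515, higher in 26 of 27 mice. TCRBD02 lost more bases from the 5′ end that faces V, 2.82 ± 0.0759 against 2.20 ± 0.0609 in 27 of 27 mice, and fewer from the 3′ end that faces J, 2.64 ± 0.0482 against 3.20 ± 0.0680, again in every mouse. Its CDR3 was 2.32 bases longer, 43.5 ± 0.123 against 41.1 ± 0.152 bases, the germline difference being 2 bases. Each of these 4 differences had an adjusted p of 1.55e-05 over 17 contrasts, from the smallest p of 1e-05 that 100000 sign flips can give. With templates as weights, the difference in D-J insertions was 0.0873 (adjusted p = 0.115, permutation test). Among blood libraries alone, that in V-D insertions was -0.0310 (adjusted p = 0.00647, permutation test). With at least 8 bases of D left the difference at the 3′ end was 0.315, but this filter itself lets the longer TCRBD02 lose more bases than TCRBD01.

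TCRBD01 itself differed with its partner. Joined to J1 rather than J2, it had fewer bases inserted between D and J, 1.52 ± 0.0564 against 1.66 ± 0.0515 (lower in 26 of 27 mice), and a CDR3 longer by 0.884 bases, 42.0 ± 0.114 against 41.1 ± 0.152 (longer in 27 of 27 mice; adjusted p = 1.55e-05 for both, permutation test). Insertions between V and D did not differ beyond the spread, with a mean difference of -0.0161 bases (adjusted p = 0.284, permutation test).

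Read in the frame of V and averaged over the 27 mice, in-frame joints used both D segments most often from the first base. This is the glycine and threonine reading. The means pool blood with tumor in the treatment mice. In tumors the tryptophan reading of TCRBD02 exceeded its first-base reading in every library except mouse 4 at 2.5E8, with 32.9% against 34.9%. In the mRBC-CTRL tumors the tryptophan reading ran from 39.4% to 43.6% and the first-base reading from 26.2% to 30.5%. Most blood libraries had the opposite order, and this contrast between tissues was not tested. For TCRBD01 the first-base reading made up 35.9% ± 1.02 of in-frame and 32.3% ± 1.07 of out-of-frame rearrangements (a difference of 3.59 points, higher in 27 of 27 mice). For TCRBD02 it was 35.0% ± 1.90 against 32.7% ± 1.17 (2.33 points, higher in 25 of 27 mice; adjusted p = 1.55e-05 for both, permutation test). The reading that gives arginine in TCRBD01 and tryptophan in TCRBD02 was lower in frame, by 2.51 points in 25 of 27 mice for TCRBD01 (adjusted p = 2.83e-05, permutation test) and by 1.86 points in 23 of 27 mice for TCRBD02 (adjusted p = 3.92e-05, permutation test). The reading with glutamine fell by 1.08 points in TCRBD01 (adjusted p = 0.000219, permutation test), and that with leucine in TCRBD02 differed by -0.465 points (adjusted p = 0.114, permutation test). Without 1-template rearrangements the arginine and tryptophan readings differed by -0.765 and -1.03 points (adjusted p = 0.22 for both, permutation test) and the leucine reading by -2.26 (adjusted p = 0.00232, permutation test).

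Out-of-frame rearrangements with J2 had TCRBD02 far more often than in-frame ones, 68.5% ± 1.66 against 59.2% ± 1.69, a gap of 9.24 ± 2.29 points in the same direction in 27 of 27 mice (adjusted p = 1.55e-05, permutation test). Put the other way, 59.4% ± 1.60 of TCRBD02 joins to J2 were in frame against 68.6% ± 1.72 of TCRBD01 joins to J2. Unresolved D went the opposite way, with 16.8% ± 1.09 of out-of-frame and 19.6% ± 0.595 of in-frame rearrangements (adjusted p = 1.55e-05, permutation test). With each rearrangement counted once, these differences rested on rearrangements with 1 template. Without them unresolved D differed by 0.107 points (adjusted p = 0.747, permutation test), the share in frame of TCRBD02 minus TCRBD01 was 2.82 points, and the gap in TCRBD02 turned to -3.69 ± 2.60 points, 52.7% ± 3.14 out of frame against 56.4% ± 2.06 in frame, with 4 of 27 mice higher out of frame. Weighted by templates, with 1-template rearrangements kept, the gap in TCRBD02 was 7.81 ± 5.73 points. The shares were then 63.6% ± 3.96 out of frame and 55.8% ± 5.30 in frame, with 23 of 27 mice higher out of frame. In blood, 86.8% ± 2.87 of out-of-frame TCRBD02 joins to J2 had 1 template, against 71.3% ± 3.46 of in-frame ones.

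Many of these out-of-frame rearrangements had an in-frame partner 1 base away in the same library. The in-frame TCRBD02 rearrangement with such partners in most libraries is shown with its most frequent partners, chosen after the values were seen, with the D bases in capitals.
in frame: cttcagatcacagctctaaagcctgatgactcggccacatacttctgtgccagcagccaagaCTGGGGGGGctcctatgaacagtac
1 base shorter: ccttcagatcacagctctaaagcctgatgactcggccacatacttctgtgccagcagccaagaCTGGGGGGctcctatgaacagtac
1 base longer: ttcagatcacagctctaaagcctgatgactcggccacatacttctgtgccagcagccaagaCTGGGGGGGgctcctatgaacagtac
The in-frame sequence was found in 13 libraries of 10 mice with 31 templates. Within those 13 libraries, the shorter one was found in 10 with 10 templates and the longer one in 6 with 6 templates. They differ in the length of the run of G that begins in TCRBD02. The shorter one lacks a G among the bases assigned to D, and the extra G of the longer one follows those bases.

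Such partners were counted for all out-of-frame rearrangements, allowing 1 inserted or deleted base and no other change. Among 1-template rearrangements of blood, 54.0% ± 3.73 of those with TCRBD02 and J2 had an in-frame partner in their own library, against 11.5% ± 2.46 with TCRBD01 and J2 and 8.26% ± 1.78 with TCRBD01 and J1 (SD, 27 mice). The lowest mouse for TCRBD02 with J2, at 42.7%, was above the highest for TCRBD01 with J2, at 16.6%. In 96.6% of the cases of TCRBD02 with J2 the extra base lay in a run of at least 4 G. The same held for 73.7% of the cases of TCRBD01 with J2 and 65.5% of those with J1. The share with a partner was also high for rearrangements assigned to TCRBD02 with J1, at 39.96% ± 5.82. Of those cases, 94.4% had the extra base in such a run. For unresolved D with J2 the share was 22.9% ± 3.04. The high share was thus not limited to TCRBD02 with J2, and the part of the assay's assignment of D in it was not tested. When the partner was looked for in the library of another mouse of the same group, the share for TCRBD02 with J2 was 0.680% ± 0.436. Above 1 template, the shares in blood were 26.2% ± 4.77 for TCRBD02 and 3.21% ± 1.58 for TCRBD01 with J2. Tumors gave 50.2% ± 8.24 and 14.8% ± 5.99 for 1-template rearrangements (15 mice). When every rearrangement with a partner of the other kind that had at least as many templates was left out, the TCRBD02 share of J2 joins was 56.0% ± 1.80 out of frame and 55.7% ± 2.13 in frame, a gap of 0.327 ± 2.38 points with 15 of 27 mice higher out of frame (adjusted p = 0.557, permutation test). The share in frame then differed by -0.231 points between TCRBD02 and TCRBD01 joins to J2 (adjusted p = 0.619, permutation test). The origin of the partners was not tested.

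**Figure D3:**
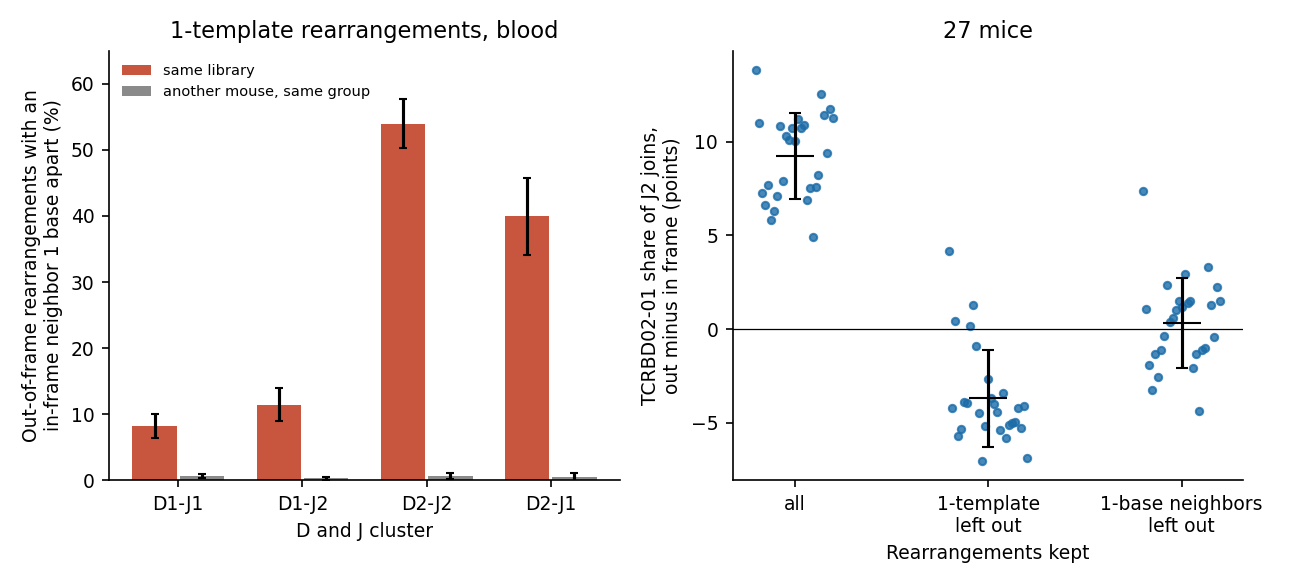
Left, percent of 1-template out-of-frame rearrangements of blood (y axis) that have an in-frame rearrangement 1 base longer or shorter, in the same library or in another mouse of the group, by D segment and J cluster (x axis); bars are means over 27 mice and error bars SD. Right, TCRBD02-01 share of J2 joins out of frame minus in frame (percentage points, y axis) for each of 27 mice with the mean and SD, with all rearrangements, without those with 1 template and without 1-base neighbors (x axis). The gap of 9.24 points is -3.69 without 1-template rearrangements and 0.327 without 1-base neighbors.

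Across the study's conditions the in-frame TCRBD02 share of J2 joins, each rearrangement counted once, varied little in blood. The 66 blood libraries lay between 55.9% and 61.6%, with a median of 58.4%, and between 44.1% and 61.6% when weighted by templates. Unweighted, the means of the 12 blood groups lay between 57.6% and 59.8%. Each value rests on 165 to 9060 rearrangements. The library with the fewest, day 7 blood of mouse 5 at 1E9, had 58.8% with a 95% Wilson interval from 51.2% to 66.0%, which covers counting error only. Before treatment the means were 59.4% ± 1.22 (n = 5) for mRBC-CTRL, 58.2% ± 0.895 (n = 5) at 2.5E8 and 59.6% ± 0.852 (n = 4) at 1E9. On day 7 they were 59.8% ± 1.46 (n = 4), 59.7% ± 1.50 (n = 5) and 58.4% ± 0.576 (n = 5). Neither dose differed from mRBC-CTRL in blood beyond the spread between mice (differences from -1.34 to 0.204 points, exact permutation test, adjusted p of at least 0.417 over 15 comparisons). The day 7 differences were larger by other counts. Without 1-template rearrangements 1E9 minus mRBC-CTRL was -5.68 points (exact permutation test, p = 0.0159, adjusted p = 0.119) and 2.5E8 minus mRBC-CTRL -3.32 (adjusted p = 0.5), and by templates they were -5.49 and -4.90 (adjusted p = 0.469 for both, exact permutation test). Between days 0 and 7 the share changed by 0.263 points in mRBC-CTRL, 1.46 at 2.5E8 and -0.981 at 1E9 (exact sign-flip tests over 4 or 5 mice, adjusted p of at least 0.562). At 1E9 this change was -5.33 points without 1-template rearrangements and -5.93 by templates, and at 2.5E8 it turned to -1.25 and -3.42 (exact sign-flip tests, adjusted p of at least 0.469). These exact tests cannot go below p = 0.125 with 4 mice or 0.0625 with 5.

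Blood of the rechallenge experiment lay somewhat lower. Its group means ran from 57.6% to 58.3%, against 58.2% to 59.8% in blood of the treatment experiment, and this offset was not tested. Cured mice had 58.3% ± 0.683 before and 58.2% ± 0.590 after EG7.OVA, and 57.6% ± 1.10 before and 57.6% ± 0.785 after EL4 (n = 7 each). Naive mice had 58.0% ± 1.32 before and 57.6% ± 1.64 after EG7.OVA (n = 5 each). Cured and naive mice differed by 0.321 points before and 0.542 after the challenge (exact permutation test, adjusted p = 0.875 for both). Without 1-base neighbors the difference after the challenge was 1.65 points and passed (exact permutation test, adjusted p = 0.0284), whereas out of frame it was -2.50 (exact permutation test, adjusted p = 0.405). Within mice the share changed by -0.135 points in cured and -0.356 in naive mice around EG7.OVA, and by -0.0481 in cured mice around EL4 (exact sign-flip tests, adjusted p = 0.875 for each).

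**Figure D4:**
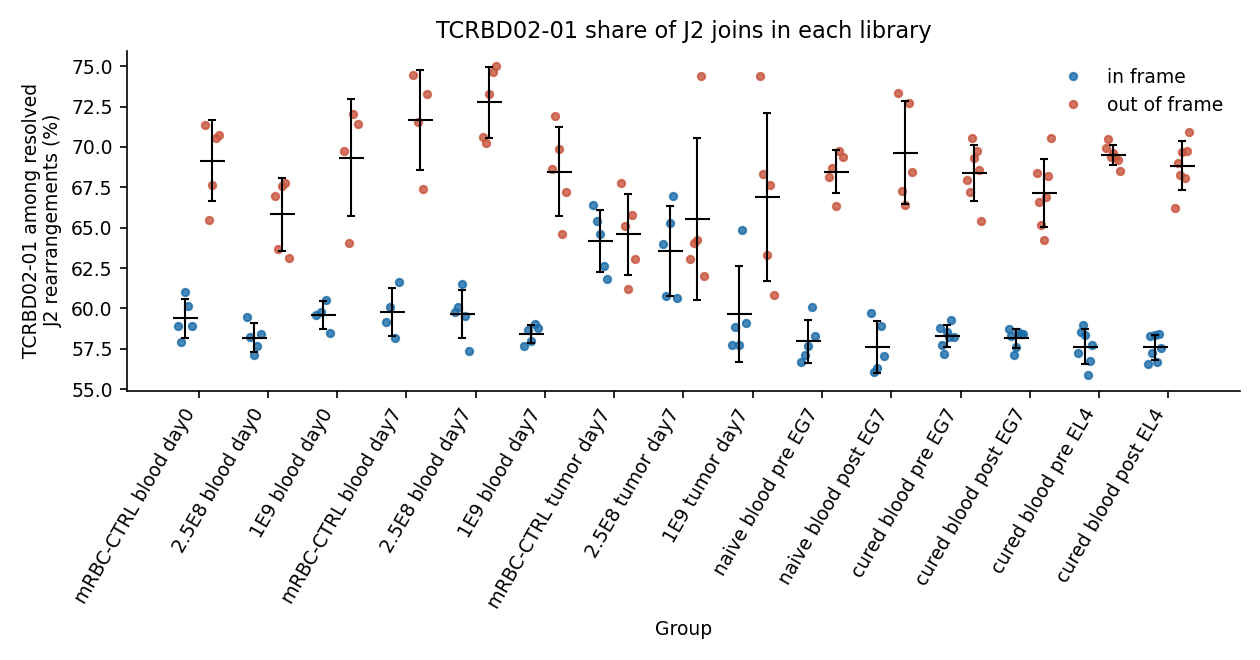
TCRBD02-01 as a percent of resolved J2 rearrangements (y axis) in each of the 81 libraries by group (x axis), in frame and out of frame; black marks give the group mean and SD. In-frame values of blood lie between 55.9% and 61.6%, those of mRBC-CTRL and 2.5E8 tumors between 60.7% and 67.0%.

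Among in-frame rearrangements, tumors used TCRBD02 more than blood. In the mRBC-CTRL tumors the in-frame TCRBD02 share of J2 joins was 66.4%, 65.4%, 64.6%, 62.6% and 61.9% in mice 1 to 5. At 2.5E8 it was 64.0%, 60.8%, 65.3%, 67.0% and 60.7%, and at 1E9 57.7%, 58.8%, 57.7%, 64.9% and 59.1%. All mRBC-CTRL tumors were above every blood library, whereas 4 of the 5 tumors at 1E9 lay within the range of blood. In the 14 mice with both samples, the share was 62.2% ± 3.09 in tumor and 59.3% ± 1.3 in day 7 blood, a difference of 2.93 ± 2.67 points, higher in tumor in 13 of 14 mice (permutation test by sign flips, adjusted p = 0.0109 over 15 comparisons). By arm the difference was 3.86 ± 2.57 points in mRBC-CTRL (4 of 4 mice), 3.88 ± 2.43 at 2.5E8 (5 of 5) and 1.22 ± 2.57 at 1E9 (4 of 5). At 1E9 it came mainly from mouse 4, with 64.9% in tumor and 59.1% in blood. Blood of mice 1, 2, 3 and 5 had 57.7%, 58.6%, 58.0% and 58.8%, close to their tumors. Mouse 5 of mRBC-CTRL was also close, with 61.9% in tumor and 61.6% in blood. The doses' tumor-blood differences did not differ from that of mRBC-CTRL beyond the spread, by 0.0208 points at 2.5E8 and -2.64 at 1E9 (exact permutation tests, adjusted p = 0.984 and 0.607 over 17 comparisons).

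The difference depended on what was counted. Out of frame, tumor minus blood was -5.38 points, 65.5% ± 4.34 against 70.9% ± 3.14, lower in 12 of 14 mice (permutation test, adjusted p = 0.0621), and with all frames together the difference was -0.181 points. Weighted by templates it was -4.10 points (permutation test, adjusted p = 0.469), with tumors ranging from 27.5% to 80.9%. With at least 8 bases of D it was 1.67 points (permutation test, adjusted p = 0.469), without 1-base neighbors 5.03 points (permutation test, adjusted p = 0.0142), and without 1-template rearrangements also 5.03 points (permutation test, adjusted p = 0.00435). Of in-frame TCRBD02 joins to J2, 63.8% ± 2.69 had 1 template in tumors (15 mice). In blood it was 71.3% ± 3.46, over all days of both experiments (27 mice) and not only the paired day 7 blood. The part of depth in the difference was not tested.

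Between tumors, the share at 1E9 minus mRBC-CTRL was -4.54 points, 59.7% ± 2.98 against 64.2% ± 1.91 (n = 5 each). The raw p of 0.0317 (exact permutation test) became 0.238 over the 15 comparisons, so the difference did not pass. The groups overlapped through mouse 4 at 1E9, whose 64.9% lay above 3 of the mRBC-CTRL tumors, and without this mouse the difference was -5.84 points (exact permutation test, p = 0.00794, adjusted p = 0.0595). That p is the smallest the test can give with 4 and 5 mice. It cannot count as evidence, because the mouse was picked for the overlap after its value was seen. With all mice, the difference by templates was -19.0 points (exact permutation test, p = 0.0476, adjusted p = 0.469), with at least 8 D bases -2.56, and out of frame it turned to 2.32. The tumors at 1E9 had 221 to 555 resolved in-frame J2 rearrangements, those at 2.5E8 209 to 1316 and those of mRBC-CTRL 1336 to 2355. At 2.5E8 the difference from mRBC-CTRL was -0.658 points (adjusted p = 0.875, exact permutation test).

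CDR3s built with TCRBD02 were longer in tumor and carried more bases between V and D. The inserted bases numbered 1.91 ± 0.0961 per in-frame TCRBD02 rearrangement in tumor and 1.71 ± 0.0559 in day 7 blood, higher in 14 of 14 mice (a difference of 0.199 ± 0.115; permutation test, adjusted p = 0.00168 over 12 comparisons). In the tumors mice ranged from 1.78 to 2.13 and in their blood from 1.60 to 1.80. The CDR3 was 43.6 ± 0.180 bases long in tumor and 43.2 ± 0.182 in blood, longer in 13 of 14 mice (0.410 ± 0.217; adjusted p = 0.00168, permutation test). The exception was mouse 1 at 2.5E8, with 43.5 bases in tumor and 43.6 in blood. For TCRBD01 the shifts were smaller. Its CDR3 was 41.8 ± 0.219 against 41.6 ± 0.140 bases (0.184 ± 0.199, longer in 10 of 14 mice, adjusted p = 0.0241, permutation test), and its V-D insertions numbered 1.86 ± 0.0698 against 1.80 ± 0.0634 (higher in 11 of 14 mice, adjusted p = 0.0847, permutation test). Whether the shift differs between TCRBD01 and TCRBD02 was not tested.

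Those length and insertion shifts also depended on what was counted. Out of frame, the TCRBD02 CDR3 was shorter in tumor by 0.184 bases (adjusted p = 0.142, permutation test) and its V-D insertions were higher by 0.155 (adjusted p = 0.0952, permutation test). Without 1-base neighbors the in-frame shifts were 0.601 bases and 0.200 insertions, with adjusted p = 0.00108 for both (permutation test). Without 1-template rearrangements they were 0.478 bases and 0.104 insertions (adjusted p = 0.0838 for both, permutation test). By templates the length shift turned to -0.259 bases (adjusted p = 0.262, permutation test) and the insertion shift was 0.0789 (adjusted p = 0.58, permutation test). For TCRBD01 the length shift was 0.102 bases without 1-template rearrangements, 0.0416 by templates and -0.285 out of frame, none of which passed (lowest adjusted p = 0.0762, permutation test). Its insertion shift passed with at least 8 D bases, 0.0897, and without 1-base neighbors, 0.0625 (adjusted p = 0.016 and 0.0444, permutation test), and turned to -0.151 by templates (adjusted p = 0.262, permutation test).

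**Figure D5:**
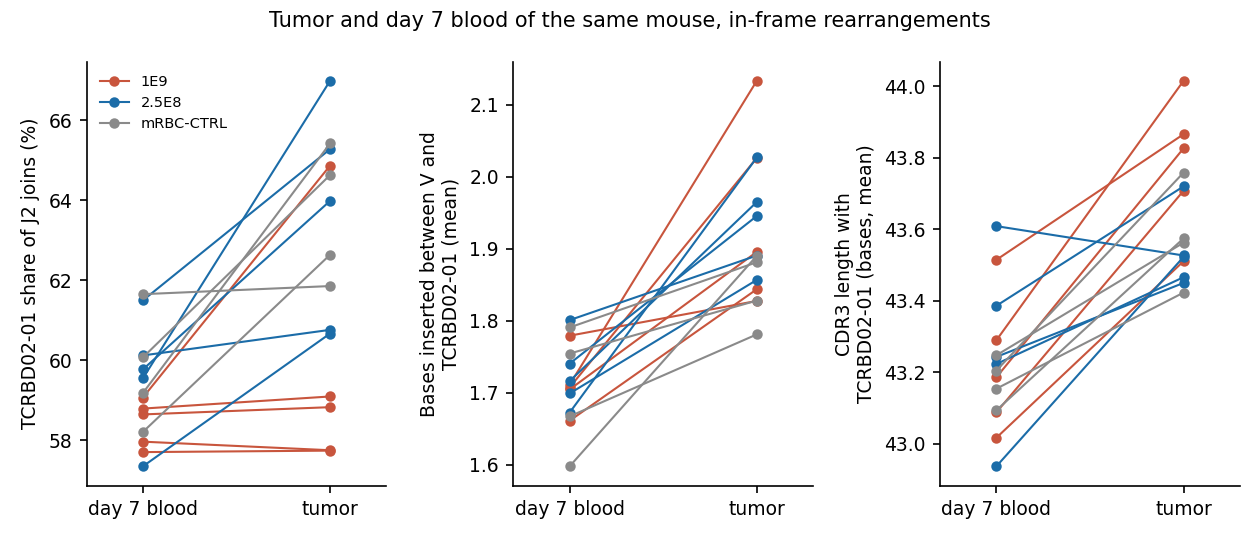
TCRBD02-01 share of J2 joins (percent), mean bases inserted between V and TCRBD02-01, and mean CDR3 length of TCRBD02-01 rearrangements (bases), each for day 7 blood and tumor of the same mouse (x axis), in frame; lines join the samples of 1 of 14 mice, colored by arm. Insertions are higher in tumor in 14 of 14 mice and CDR3 length in 13 of 14.

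The other measures moved little. The J1 share of TCRBD01 was 52.7% ± 3.40 in tumor and 53.1% ± 2.27 in day 7 blood (adjusted p = 0.695, permutation test), and unresolved D made up 18.8% ± 1.01 and 19.7% ± 1.09 (lower in tumor in 10 of 14 mice, adjusted p = 0.102, permutation test). The latter difference was -2.66 points with at least 8 D bases (adjusted p = 0.0098) and 1.2 points with both dominant CDR3s kept (adjusted p = 0.0291, permutation test). Between tumors at 1E9 and mRBC-CTRL none of the 6 measures passed with all in-frame rearrangements. The closest were CDR3 length with TCRBD02, 43.8 ± 0.189 against 43.6 ± 0.120 bases (adjusted p = 0.159, exact permutation test), which passed with at least 8 D bases, a difference of 0.304 (adjusted p = 0.019, exact permutation test), and V-D insertions with TCRBD02, 1.95 ± 0.131 against 1.82 ± 0.0634 (adjusted p = 0.163, exact permutation test). As a share of all in-frame rearrangements, TCRBD02 made up 33.2% ± 1.08 of blood (66 libraries) and 37.0% ± 1.69 of tumor (15 libraries), and TCRBD01 46.9% ± 0.951 and 44.2% ± 1.79. Of in-frame templates, TCRBD02 held 33.2% ± 1.40 in blood and 29.8% ± 9.86 in tumor, and TCRBD01 47.3% ± 1.93 and 48.1% ± 13.4.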

How the data were processed

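The methods state that TCRβ CDR3s were amplified from genomic DNA by multiplex PCR with bias control (immunoSEQ), and that identical reads were merged and filtered before deposit. For the analysis that followed they name the ImmunoSEQ analyzer, and the genome build behind the segment names is not given in the sources used here. For each rearrangement the authors deposited a raw template count, beside V, D and J names, insertions, deletions, CDR3 length and frame. In 81 of 81 libraries the count equaled the estimated number of genomes. Of the 87-base sequences, the first insertion column always lay between V and D and the second between D and J.

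Distinct in-frame rearrangements with a resolved D were counted once each, and a mouse's value is the mean over its libraries. Arms were set against each other with exact 2-sided permutation tests over mice, and samples of a mouse with 2-sided sign-flip tests, exact below 10 mice and otherwise with 100000 flips, adjusted by Benjamini-Hochberg within 3 families of 15, 12 and 17 comparisons at 0.05. Mice of different arms share numbers but are different animals. J segments are all named, V segments by the highest 3 and the lowest Pearson r. The alternatives were template weights, 1-template rearrangements left out, sequences within 2 mismatches of the CDR3s left out, both CDR3s kept, at least 8 D bases, other frames or denominators, experiment or tissue subsets, the mouse number as a block, and each mouse left out. Out-of-frame rearrangements alone and 1-base neighbors left out were added after seeing the data. The members, lists and tests were chosen with earlier results of these data known. The procedures were tested on simulated data. Python 3.11.15, numpy 2.4.6, scipy 1.17.1 and pandas 2.3.3 were used.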

Additional observations from a re-analysis of the deposited data

Results flagged for a closer look

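In 3 of the 51 groups examined, where chance alone flags about 2.55, a single mouse lay far from the others of its group. The TCRBD02 share of J2 joins in the 1E9 tumor of mouse 4 was 64.9%, and the nearest tumor of the arm had 59.1%. At 2.5E8, the mean CDR3 length with TCRBD01 in the tumor of mouse 4 was 41.5 bases against 41.9 in the nearest, a library with 209 resolved in-frame J2 rearrangements. The mean CDR3 length with TCRBD02 in the 2.5E8 tumor of mouse 2 was 43.7 bases against 43.5 in the nearest.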

How the results depend on the processing

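In all, 44 results were recomputed. The alternatives kept direction and side of the threshold in 565 cases, lost the threshold in 18, newly passed it in 14 and turned the direction in 60, and 8 results were unchanged under all of theirs. The causes were not tested. Values are differences, in points for shares and in bases for insertions and lengths. The measure between conditions is the TCRBD02 share of J2 joins unless another is named.

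With templates as weights, tumor minus day 7 blood was -4.10 and day 7 minus day 0 at 2.5E8 was -3.42. For tumor minus blood, unresolved D was 2.07, V-D insertions -0.151 for TCRBD01 and 0.0789 for TCRBD02, and CDR3 length 0.0416 and -0.259. Between 1E9 and mRBC-CTRL tumors, unresolved D was -6.30 and V-D insertions -0.210 and -0.154. Within mice, V-D insertions were 0.0477 for TCRBD02 minus TCRBD01 with J2 and 0.0380 for TCRBD01 with J1 minus J2, D-J insertions of the former were 0.0873, and the glutamine reading of TCRBD01 differed by -1.47 between in and out of frame.

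Without 1-template rearrangements, day 7 minus day 0 at 2.5E8 was -1.25 and after minus before EG7.OVA in naive mice 0.119. Tumor minus blood was -0.0215 and 0.104 for V-D insertions of TCRBD01 and TCRBD02, and 0.102 and 0.478 for CDR3 length. Between 1E9 and mRBC-CTRL tumors, the J1 share of TCRBD01 was 0.877, its V-D insertions -0.0194 and its CDR3 length 0.339. Out of frame minus in frame was -3.69 for the TCRBD02 share and 0.107 for unresolved D, and TCRBD02 minus TCRBD01 was 2.82 for the share in frame. The readings with arginine (TCRBD01), tryptophan and leucine (TCRBD02) differed by -0.765, -1.03 and -2.26.

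With at least 8 D bases, tumor minus blood was 1.67, day 7 2.5E8 minus mRBC-CTRL 1.19, cured minus naive after EG7.OVA -0.862, and after minus before in naive mice 0.179. For tumor minus blood, unresolved D was -2.66, V-D insertions of TCRBD01 0.0897 and its CDR3 length 0.178. Between 1E9 and mRBC-CTRL tumors, CDR3 length was 0.0776 for TCRBD01 and 0.304 for TCRBD02, the latter past the threshold. TCRBD02 minus TCRBD01 was -0.0512 for V-D insertions and 0.315 for the 3′ deletion, whose range the filter itself limits, and the readings with glutamine, tryptophan and leucine differed by -0.259, -0.564 and -0.761.

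With all frames, tumor minus blood was -0.181, day 7 2.5E8 minus mRBC-CTRL 0.541, cured minus naive after EG7.OVA -0.712 and after minus before in naive mice 0.481. With unresolved D in the denominator, day 7 2.5E8 minus mRBC-CTRL was 0.0625 and after minus before EL4 0.0601. With both CDR3s kept, unresolved D was 1.2 for tumor minus blood.

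The next alternatives were chosen after seeing the data. Out of frame, tumor minus blood was -5.38, day 7 2.5E8 minus mRBC-CTRL 1.08, tumor 2.5E8 and 1E9 minus mRBC-CTRL 0.971 and 2.32, cured minus naive -0.0435 before and -2.50 after EG7.OVA, and after minus before in naive mice 1.19. For tumor minus blood, unresolved D was 2.10, V-D insertions of TCRBD02 0.155, and CDR3 length -0.285 for TCRBD01 and -0.184 for TCRBD02, and V-D insertions of TCRBD02 at 1E9 minus mRBC-CTRL were -0.0934. Without 1-base neighbors, day 0 2.5E8 minus mRBC-CTRL was 0.0755, day 7 minus day 0 was -0.538 in mRBC-CTRL and -1.27 at 2.5E8, cured minus naive after EG7.OVA 1.65, past the threshold, and after minus before in cured mice 0.0465 for EG7.OVA and 0.0495 for EL4. For tumor minus blood, unresolved D was -1.16 and V-D insertions of TCRBD01 0.0625. Out minus in frame was 0.327, the share in frame of TCRBD02 minus TCRBD01 -0.231 and the leucine reading -1.72.

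V-D insertions of TCRBD02 minus TCRBD01 passed the threshold in blood libraries alone, -0.0310, and in the rechallenge mice, -0.0203. In the treatment mice the glutamine reading differed by -0.785 and the tryptophan reading by -0.775.

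With each mouse left out, the ranges were 2.58 to 3.17 for tumor minus blood, -5.84 to -3.98 for tumor 1E9 and -1.52 to 0.0586 for tumor 2.5E8 minus mRBC-CTRL, -0.164 to 0.617 for day 0 1E9, -0.645 to 0.504 for day 7 2.5E8, -0.559 to 1.00 for day 7 minus day 0 in mRBC-CTRL, and -0.250 to 0.00311 and -0.329 to 0.234 for cured mice around EG7.OVA and EL4. For tumor minus blood they were -0.866 to 0.193 for the J1 share of TCRBD01, -0.985 to -0.606 for unresolved D and 0.0491 to 0.0702 for V-D insertions of TCRBD01.

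Taking mice of equal number together as a replicate block, tumor 1E9 minus mRBC-CTRL was -4.54 (exact sign-flip test, p = 0.125), and no comparison between arms passed, as without it. Equal numbers mark different animals, and their deviations correlated at -0.0379 over 41 pairs of the treatment and 0.256 over 10 pairs of the rechallenge groups. Depth limits single libraries, of which the shallowest had 165 resolved in-frame J2 rearrangements in blood and 209 in tumor.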
